A study of Mus musculus with 4 samples.

Results

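Pericytes of the fetal mouse thymus with little or no Top2a, called non-cycling by that gene alone, were selected from droplet single-cell RNA counts by the ATP-sensitive potassium channel they carry. Cells with 200 genes or more and no more than 10% of UMIs from mitochondrial genes were considered. A cell was taken when it had a UMI (unique molecular identifier, 1 count per captured transcript) of at least 4 of the 8 mesenchymal genes Pdgfra, Pdgfrb, Twist1, Prrx1, Dcn, Lum, Postn and Fbn1, and no UMI of Epcam, Ptprc or Cdh5, the markers of epithelial, hematopoietic and endothelial cells. Among these gated mesenchymal cells, pericytes had at least 2 UMIs of Kcnj8, at least 1 of Abcc9 and at most 1 of the mitotic topoisomerase Top2a. The rule kept 1115 of the 31105 deposited cells. Because these counts chose the cells, the levels of the 14 rule genes are given as descriptions only.

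Thymic lobes were taken at E13 to E13.5 from C57BL/6 embryos of Tbx1+/neo2 intercrosses, following intraperitoneal injections of the dams on 3 mornings, E8, E9 and E10. The 4 groups, each 1 library, were Tbx1+/+ carrier, Tbx1neo2/neo2 carrier, Tbx1neo2/neo2 minoxidil (200 µl at 0.55 mg/ml) and Tbx1neo2/neo2 PGE2 (90 µl at 3.6 ng/µl). The carrier was 5% ethanol in PBS. The neo2 allele is hypomorphic through an intronic neomycin resistance cassette, so the hypoplastic lobes model reduced dosage in every cell and not a loss in pericytes alone. Lobes were trypsinized, hypoplastic lobes were pooled, and the number of embryos per library is not given in the sources used here. In this order, which is kept below, 11908, 11364, 3362 and 4471 cells were deposited, and their UMIs summed to 292687940, 194023208, 151740600 and 156363845. With 1 library per group there was no replicate check and no test. Intervals are at 95% and cover counting error only, both drug contrasts share the Tbx1neo2/neo2 carrier library, and from 4 to 35 barcodes occurred in both libraries of a pair, none of them in pericytes of both.

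Pericytes are mural cells that lie on capillaries inside the basement membrane they share with the endothelium. Endothelial PDGFB recruits them through PDGFRB, and Notch3 signals maintain them. Kcnj8 encodes the pore Kir6.1 and Abcc9 the sulfonylurea receptor SUR2 of the vascular KATP channel, whose opening hyperpolarizes the cell and relaxes the vessel. Minoxidil opens this channel after Sult1a1 has sulfated it, and PGE2 acts on the receptors encoded by Ptger1 to Ptger4. In the GRCm38 annotation both channel genes lie next to each other on the minus strand, Kcnj8 at chr6:142564837-142571614 and Abcc9 at chr6:142587862-142702315.

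The cells had the profile of pericytes in each library. They were set beside the other gated mesenchymal cells, which had at most 1 Top2a UMI and none of Kcnj8 or Abcc9. Levels are UMIs per 1000000 UMIs of the class (CPM). Of 2825 genes with at least 50 CPM in the higher class of every library, 30 were at least 2-fold higher in pericytes in all 4 libraries and 39 were at least 2-fold lower. Ndufa4l2, a mitochondrial protein used as a pericyte marker, stood at 242, 220, 171 and 181 CPM in pericytes and at 6.02, 1.55, 1.86 and 7.25 CPM in the other cells. Cox4i2, an isoform of a cytochrome c oxidase subunit, was at 114, 99.3, 89.1 and 88.7 CPM against 11.03, 9.75, 6.74 and 10.7 CPM. The transcription factor Ebf1 was at 552, 627, 555 and 560 CPM against 202, 140, 227 and 223 CPM. These 3 genes were picked by their ratio between the classes in the same libraries, so their separation followed from that choice and is a description only.

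The remaining genes of the 20 that stood highest in pericytes included the transcription factors Ets1 and Tcf21, Notch1, the FGF signal inhibitor Spry2, the interferon-induced Ifitm1 and Ifitm3, and the basement membrane collagens Col4a1 and Col4a2. Col4a1 was at 452, 503, 426 and 479 CPM in pericytes and 73.7, 55.5, 76.0 and 149 CPM in the other mesenchyme. Gucy1b3, a subunit of the nitric oxide receptor, was at 117, 131, 99.0 and 104 CPM against 20.9, 3.41, 19.52 and 21.8 CPM. For Gucy1b3 the pericytes of the 4 libraries lay close together, while the other mesenchyme of the Tbx1neo2/neo2 carrier library stood apart. The genes lowest in pericytes were Zfhx4, Maf, Olfml3, Gja1, Egfl6, Sema3a, Plpp3, Serpinf1, Mpped2 and Cdon, with the transcription factor Maf at 20.2, 14.6, 15.8 and 20.4 CPM against 124, 74.5, 144 and 153 CPM.

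**Figure D1:**
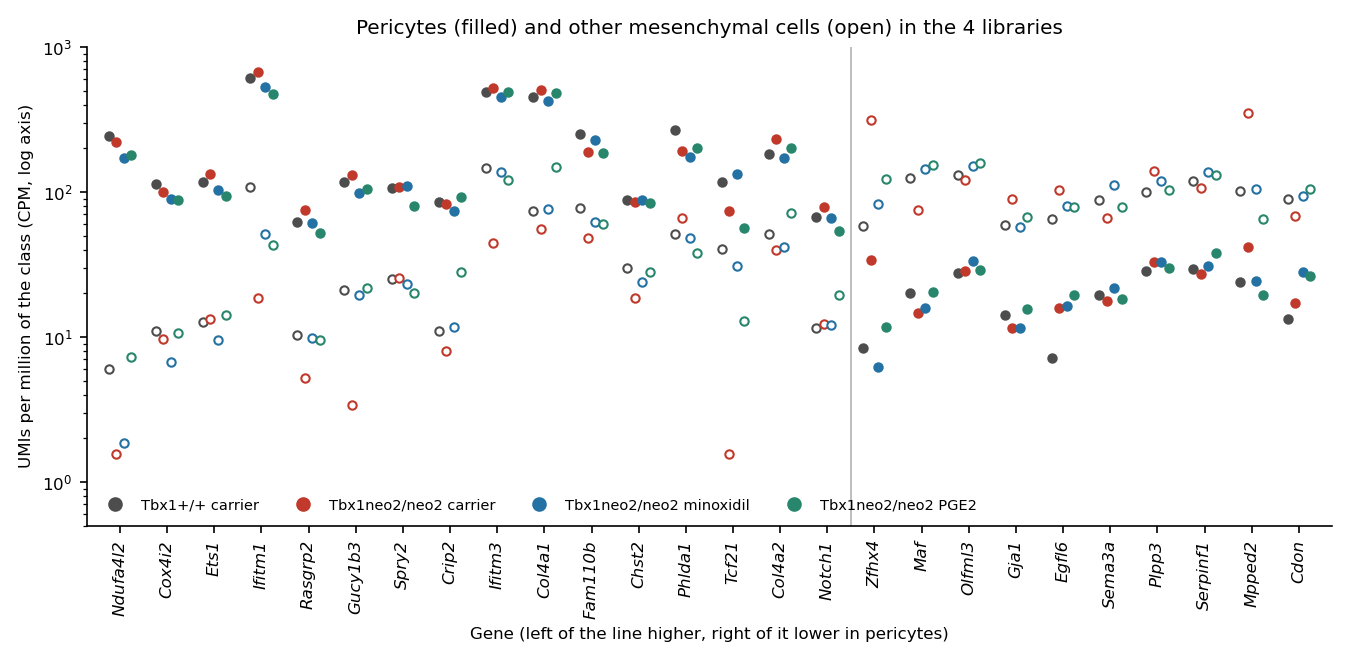
Levels (UMIs per 1000000, log axis) of the 16 genes highest and the 10 genes lowest in pericytes relative to other mesenchymal cells, with filled points for pericytes and open points for the other cells of each library. In every library the filled points lie above the open points left of the line (Ndufa4l2 between 171 and 242 against at most 7.25) and below them right of it.

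Other pericyte markers differed in level from gene to gene. Of the 25 pericyte genes outside the rule, Notch3 (35.2, 37.5, 42.4 and 48.0 CPM), its target Heyl (49.1, 45.7, 43.6 and 41.6 CPM), Cspg4, which encodes NG2 (28.8, 26.2, 27.9 and 32.2 CPM), and Foxs1 (18.1, 21.7, 19.0 and 22.6 CPM) were present in each library. Higd1b and Vtn, markers of mature brain pericytes, had no more than 14 UMIs in any library. Pdgfrb, a rule gene and so given as a description only, was at 191, 206, 165 and 155 CPM in the pericytes. Pdgfra, a fibroblast receptor also used by the rule, was at 192, 184, 245 and 204 CPM in the pericytes. The Kcnj8 count had no gap at the threshold. Among gated cells with an Abcc9 UMI and within the Top2a limit, 239, 121, 67 and 68 had 0 Kcnj8 UMIs and 141, 56, 46 and 61 had 1. There 109, 47, 32 and 51 cells had 2, and 96, 34, 28 and 27 had 3.

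Pericytes numbered 504, 168, 229 and 214. They made up 20.8% (19.2 to 22.5) of 2422 gated mesenchymal cells in the Tbx1+/+ carrier library, 3.23% (2.76 to 3.74) of 5205 in the Tbx1neo2/neo2 carrier, 26.5% (23.6 to 29.6) of 863 with minoxidil and 27.9% (24.7 to 31.2) of 768 with PGE2. The share in the Tbx1neo2/neo2 carrier library was thus 0.155 (0.131 to 0.183) of that in the Tbx1+/+ carrier, or 6.45-fold lower. The shares with minoxidil and PGE2 were 8.22 (6.83 to 9.90) and 8.63 (7.16 to 10.4) times that of the Tbx1neo2/neo2 carrier. Pericytes had a median of 16793.5, 15320, 30583 and 24399.5 UMIs, and a rule on whole UMIs passes more cells at greater depth. With each cell thinned to 5000 UMIs, the shares were 6.72, 1.06, 7.38 and 7.36% on 152, 42, 58 and 47 cells, and the order of the Tbx1neo2/neo2 carrier against the others was kept. As a background, 2.18, 1.41, 2.15 and 0.959% of epithelial cells (median depths 25401, 29182, 57620 and 46289 UMIs) also passed the Kcnj8 and Abcc9 limits, and the parts of free RNA and doublets in this were not tested.

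This difference in share was not found in all cells of the Tbx1neo2/neo2 carrier library. Cells were divided by UMIs of Xist, the noncoding RNA of the inactive X, and of Y-linked genes. The pericytes with Xist and no Y-linked UMI numbered 120, 56, 228 and 1, and those with a Y-linked UMI and no Xist 294, 80, 0 and 192. Among cells with Xist alone, pericytes were 19.8% (16.7 to 23.2) of the gated cells in the Tbx1+/+ carrier, 31.1% (24.4 to 38.4) in the Tbx1neo2/neo2 carrier and 26.9% (23.9 to 29.97) with minoxidil. Among cells with Y-linked UMIs alone, they were 20.1% (18.1 to 22.2), 1.83% (1.45 to 2.27) and, with PGE2, 27.2% (24.0 to 30.7). The low share was therefore seen in the Y-linked cells, where it was 0.0909 times that of the Tbx1+/+ carrier, while in the Xist cells the share was 1.57 times that of the Tbx1+/+ carrier and the minoxidil share was 0.863 times that of the Tbx1neo2/neo2 carrier.

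The other mesenchyme in the denominator was divided unevenly between the kinds of cell. Other non-cycling mesenchyme without the channel numbered 633, 3591, 183 and 128 cells, and of the 3591 cells 3105 had Y-linked UMIs alone and 26 Xist alone, although the epithelial cells of the same library were 917 and 445. Per 100 epithelial cells of their own library there were 9.24 (8.42 to 10.1), 10.3 (8.76 to 12.1), 17.6 (15.2 to 20.3) and 11.4 (9.86 to 13.2) pericytes. Per 100 hematopoietic cells there were 21.6, 18.7, 33.0 and 18.6 pericytes, and per 100 endothelial cells 213 (182 to 249), 77.8 (63.2 to 95.6), 273 (211 to 354) and 306 (232 to 406). Relative to epithelial or hematopoietic cells the Tbx1neo2/neo2 carrier was thus within 1.2-fold of the Tbx1+/+ carrier, and relative to endothelial cells it was 2.73-fold lower. Among Xist cells, pericytes per 100 endothelial cells were 222 (160 to 312) in the Tbx1+/+ carrier and 243 (147 to 415), on 23 endothelial cells, in the Tbx1neo2/neo2 carrier. Among Y-linked cells they were 262.5 (210.5 to 329) and 58.4 (43.8 to 77.5). Sex, embryo and dissection cannot be told apart in a library pooled from an unknown number of embryos.

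**Figure D2:**
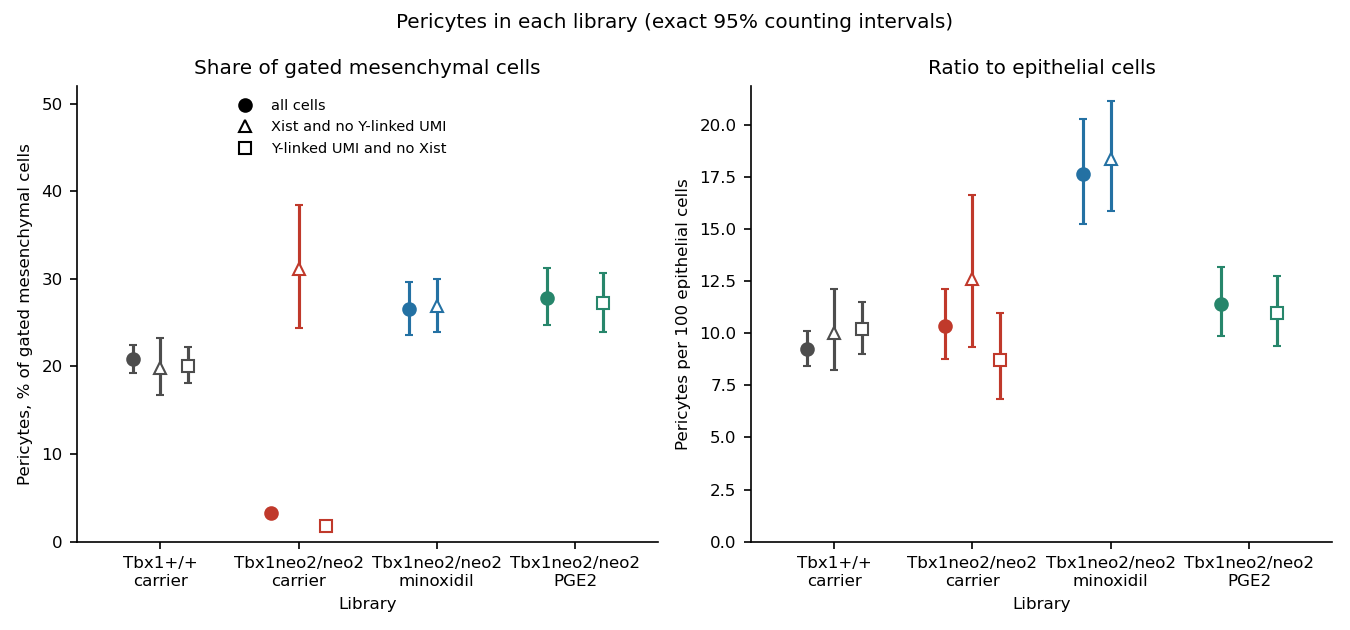
Pericytes as a percentage of gated mesenchymal cells (left) and per 100 epithelial cells (right) in the 4 libraries, for all cells (filled circles) and for cells with Xist or with Y-linked UMIs alone (open triangles and squares), with exact 95% counting intervals. On the left the Tbx1neo2/neo2 carrier is low in all cells (3.23%) and in Y-linked cells (1.83%) but not in Xist cells (31.1%), and on the right it lies at 10.3 beside 9.24 in the Tbx1+/+ carrier.

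Cycling counterparts, with the same channel limits and at least 2 Top2a UMIs, numbered 398, 113, 177 and 145. They were 44.1, 40.2, 43.6 and 40.4% of all channel-positive cells, and thinned to equal depth 30.3, 27.6, 26.6 and 16.1% with the last resting on 9 cells of 56. The Top2a limit did not remove all proliferation transcripts from the pericytes kept. Cdk1, the mitotic kinase, had a UMI in 48.4, 44.6, 58.5 and 53.3% of them and Birc5, a mitotic survival factor, in 40.9, 38.1, 41.9 and 32.2%. Birc5 was at 85.0, 95.2, 53.5 and 45.4 CPM against 38.4, 38.0, 29.98 and 32.8 CPM in other mesenchyme under the same limit.

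The transcriptomes of pericytes were compared over UMIs summed per library (8606854, 2669409, 7264879 and 5436146 UMIs). A gene counted as past 2-fold when its CPM differed at least 2-fold with at least 20 CPM in the higher library. Between Tbx1neo2/neo2 carrier and Tbx1+/+ carrier pericytes, 15 of 5852 genes were higher (0.256%) and 33 lower (0.564%). Of 12 measured pericyte genes none was past 2-fold, which at these shares of all genes is no result about the list. The list had a median log2 ratio of -0.01 beside -0.04 over all genes. Of the lower genes 10 were on the immediate early list, and of the higher genes 3 were on the fibroblast list and 1 on the chondrogenic list.

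Immediate early genes, which are transcribed within minutes of a stimulus and are also known to respond to tissue dissociation, were lower in pericytes of the Tbx1neo2/neo2 carrier library. Of 26 measured members, 10 were at least 2-fold lower and none higher, with a median log2 ratio of -0.84. Fos, the AP-1 subunit, was at 965, 295, 1258 and 1416 CPM, a log2 ratio of -1.71 (-1.82 to -1.60) between the carrier libraries, and had a UMI in 99.2, 83.3, 99.1 and 97.7% of pericytes. Atf3, a stress-induced repressor, was at 60.3, 3.75, 103 and 164 CPM, from 519, 10, 751 and 891 UMIs, a log2 ratio of -4.01 (-5.08 to -3.12). In both genes the Tbx1neo2/neo2 carrier stood alone below the other 3 libraries.

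The other members past 2-fold lower had the Tbx1neo2/neo2 carrier lowest as well. Socs3, the inhibitor of JAK-STAT signals, was at 359, 95.5, 387 and 358 CPM. Klf2, which responds to shear stress in endothelium, was at 173, 52.8, 208 and 289 CPM and Klf4 at 109, 50.9, 142 and 168 CPM. Dusp1, a phosphatase of MAP kinases, was at 78.5, 20.2, 107 and 102 CPM, the mRNA decay factor Zfp36 at 165, 73.1, 202 and 219 CPM, and the antiproliferative Btg2 at 299, 105, 349 and 425 CPM. Nr4a1 and Gadd45b completed the 10. Fosb (389, 297, 460 and 582 CPM), Egr1 (675, 416, 780 and 818 CPM), Jun (910, 543, 917 and 1295 CPM) and Ier2 (508, 304, 461 and 470 CPM) were lowest in the same library but within 2-fold of the Tbx1+/+ carrier, as was the heat shock gene Hspa1a at 8.02, 5.62, 7.98 and 9.57 CPM. Summed over the list, levels were 9092, 5575, 9763 and 10745 CPM.

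The lower immediate early levels were found in pericytes of both kinds and for Fos in other classes too. In Xist cells Fos was at 1066 CPM in the Tbx1+/+ carrier and 199 CPM in the Tbx1neo2/neo2 carrier, and in Y-linked cells at 930 and 370 CPM. Socs3 was at 338 and 95.9 CPM in Xist cells and at 365 and 105 CPM in Y-linked cells. Of the list 16 of 27 members were past 2-fold lower among Xist cells (3.34% of all genes lower, 0.732% higher) and 9 of 26 among Y-linked cells (0.903% lower, 0.686% higher). In other mesenchyme Fos was at 1382, 136, 1633 and 1469 CPM, and in hematopoietic cells, which reached the same suspension, at 331, 87.0, 262 and 308 CPM. The lower Fos level of this library was thus seen in all 3 cell classes.

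**Figure D3:**
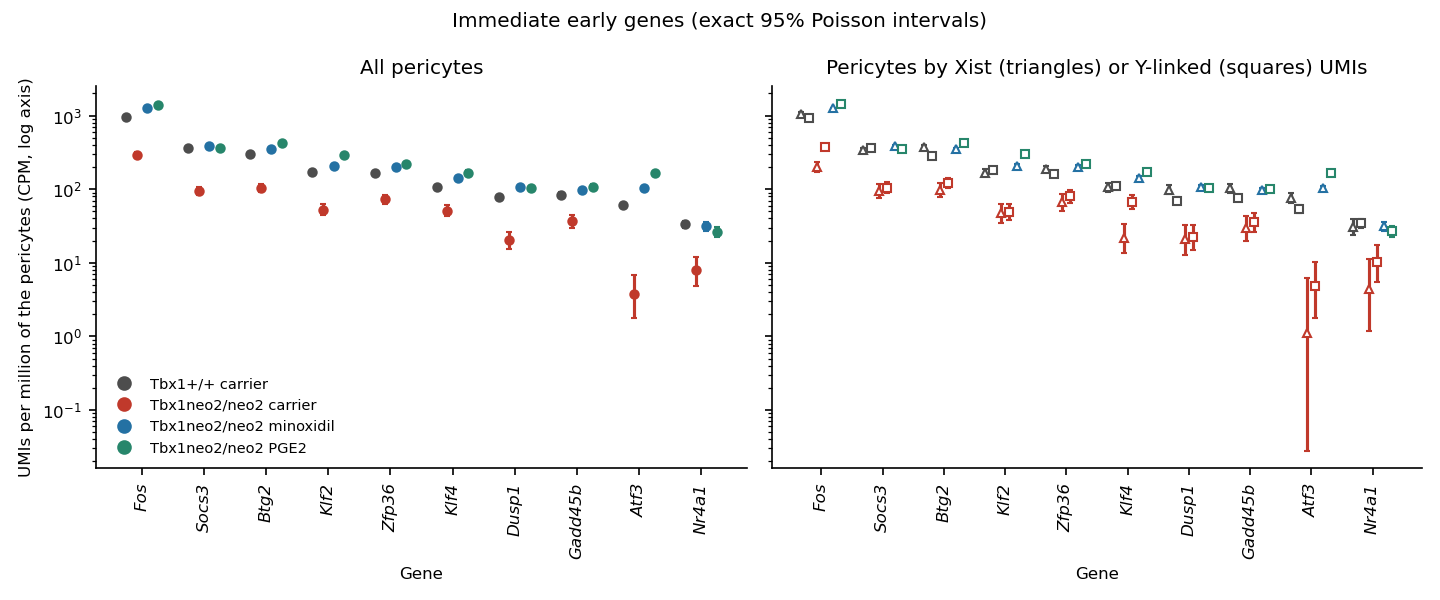
Levels (UMIs per 1000000, log axis) of the 10 immediate early genes past 2-fold lower in Tbx1neo2/neo2 carrier pericytes, in all pericytes (left) and in those with Xist (triangles) or Y-linked UMIs (squares) alone, with exact 95% Poisson intervals. The Tbx1neo2/neo2 carrier is the lowest library for each gene on the left, such as Fos at 295 against 965 to 1416, and for both kinds of cell on the right.

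Promoters of the 33 lower genes were searched on both strands for the cAMP response element TGACGTCA, a palindrome bound by CREB and ATF factors. The element was chosen after Atf3 was seen to have the lowest ratio. RefSeq promoters of GRCm38.p6, from 250 bases before to 50 after the start, were matched for 22 of the 33 genes, and 3 (13.6%) held the element, against 2.03% of 27025 genes. The windows are shown 5′ to 3′ on the gene's strand with the element in capitals, for Btg2 at chr1:134079288-134079347 (minus), Ppp1r15a at chr7:45526269-45526306 (minus) and Dusp1 at chr17:26508582-26508641 (minus). A match is a description of letters and no evidence of binding, and a link between the element and the lower levels was not tested.
Btg2: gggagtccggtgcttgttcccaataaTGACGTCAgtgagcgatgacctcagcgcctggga
Ppp1r15a: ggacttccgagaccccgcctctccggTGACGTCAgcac
Dusp1: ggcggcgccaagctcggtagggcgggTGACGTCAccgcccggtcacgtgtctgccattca

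Ppp1r15a, which restores translation after stress as the GADD34 subunit of a phosphatase, was at 65.9, 22.5, 90.2 and 86.5 CPM, lowest in the same library as Btg2 and Dusp1. The chemokine Cxcl1 was at 70.8, 12.0, 48.3 and 98.4 CPM, a log2 ratio of -2.56 (-3.12 to -2.05) between the carrier libraries. Gadd45g, a DNA damage and cytokine response gene, was at 53.9, 12.4, 38.4 and 45.8 CPM. Cxcl1 and Gadd45g were lowest there as well. Penk, which encodes proenkephalin, differed in order, at 243, 111, 171 and 77.1 CPM with PGE2 the lowest. All 33 genes stayed past 2-fold when each gene's richest cell was left out of every library. Within Y-linked cells 31 of the 33 kept their direction and 22 were past 2-fold.

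Of the 15 genes higher in Tbx1neo2/neo2 carrier pericytes, 4 (Zfhx4, Fibin, Ogn and Aspn) stayed past 2-fold at 20 CPM without each gene's richest cell. Plcb1, Lpar4, Runx1 and Fam46a stayed just under it, with log2 ratios of 0.9963, 0.9965, 0.93 and 0.96, and Plcb1 had a UMI in 54.8% of these pericytes. Col2a1 and Hoxa7 kept log2 ratios of 6.08 and 5.69 but fell short of 20 CPM, and the 4 globin genes and Pf4 had 0.65 to 0.86. Ogn and Aspn, small proteoglycans of connective tissue, were at 17.1, 55.1, 35.5 and 66.8 CPM and at 21.8, 52.1, 23.7 and 33.7 CPM. Zfhx4, a homeodomain factor of pharyngeal mesenchyme, was at 8.37, 33.7, 6.19 and 11.8 CPM. Among these Aspn and Zfhx4 were highest in the Tbx1neo2/neo2 carrier, while Ogn was at least as high with PGE2, and its log2 ratio between the carrier libraries was -0.14 when cells were thinned before the rule was applied. Each was higher in the other mesenchyme of that library, where Ogn was at 527 CPM, Aspn at 299 CPM and Zfhx4 at 312 CPM.

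Among the Tbx1neo2/neo2 carrier pericytes these fibroblastic genes were higher in the Y-linked cells. In Tbx1neo2/neo2 carrier pericytes with Xist alone and with Y-linked UMIs alone, Ogn was at 6.61 and 82.0 CPM, Zfhx4 at 9.92 and 40.6 CPM, and Fibin at 5.51 and 67.7 CPM. Sox9, the master factor of cartilage, was at 12.1 and 69.3 CPM, Col2a1, its collagen target, at 1.10 and 33.4 CPM, Col9a3 at 2.20 and 23.9 CPM, and Matn4 at 0 and 21.5 CPM, so that these 4 chondrogenic genes were also higher in the Y-linked cells. Removal of the highest Scrublet doublet scores took 12 of the 168 Tbx1neo2/neo2 carrier pericytes (7.14%) and 3 in the Tbx1+/+ carrier (0.595%), and the chondrogenic median log2 ratio between the carrier libraries went from 1.02 to -0.35. In Tbx1+/+ carrier pericytes Sox9 was at 23.9 and 28.1 CPM in the 2 kinds of cell. The kind of cell with more Sox9 and Col2a1 was also the kind with 3105 of the 3591 other mesenchymal cells, and the part of free RNA from them in these values was not tested. Over all pericytes Sox9 was at 27.2, 53.9, 32.5 and 40.7 CPM, just under 2-fold between the carrier libraries (log2 0.99, 0.68 to 1.29). Plcb1, a phospholipase of Gq signals, was higher in both kinds, at 122 and 96.4 CPM against 44.0 and 53.5 CPM in the Tbx1+/+ carrier.

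Hoxa7, a positional gene of the trunk, had 65 UMIs in 14 of the 168 Tbx1neo2/neo2 carrier pericytes and none in the other 3 libraries. Against a floor of 3 counts per library it was at least 69.9-fold higher than in the Tbx1+/+ carrier. It was also at 104 CPM in the other mesenchyme of its library, against 0.455, 0 and 1.91 CPM elsewhere. Col2a1 was at 0.349, 26.2, 0.413 and 1.47 CPM, with 3 UMIs in the Tbx1+/+ carrier. The 4 globin genes Hbb-bs, Hbb-bt, Hba-a1 and Hba-a2 headed the list by level, with Hbb-bs at 186, 1631, 1175 and 1427 CPM, but 1 cell of each library held 80.6, 96.5, 93.9 and 94.2% of its UMIs, and the ratio of each globin between the carrier libraries turned the opposite way in thinned cells.

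With minoxidil, 101 of 5906 genes were at least 2-fold higher than in Tbx1neo2/neo2 carrier pericytes (1.71%) and 20 lower (0.339%). The minoxidil pericytes had Xist alone in 228 of 229 cells, while the Tbx1neo2/neo2 carrier held both kinds, so drug, sex and embryo cannot be told apart in this contrast. Immediate early genes led, with 14 of 26 higher and none lower and a median log2 ratio of 1.03 beside 0.05 over all genes. Fos differed by a log2 ratio of 2.09 (1.99 to 2.20) and Atf3 by 4.79 (3.90 to 5.85). Within Xist cells, 15 of 26 were higher (3.57% of all genes higher, 0.603% lower). The reference of this contrast is the library with the low values described above.

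A second group was high with minoxidil against all other libraries. Nme2, a nucleoside diphosphate kinase, was at 18.1, 13.5, 131 and 20.6 CPM, and the histone gene Hist1h2ap at 27.5, 22.9, 131 and 37.9 CPM. Pgk1, a glycolytic enzyme, was at 27.9, 18.0, 69.4 and 22.8 CPM. These 3 genes were spread over the cells, with a UMI of Nme2 in 25.4, 17.9, 96.1 and 36.0% of pericytes. They were also higher than in the Tbx1neo2/neo2 carrier in the other mesenchyme of the minoxidil library, where Nme2 was at 14.3, 10.7, 90.4 and 13.4 CPM. Nme2, Hist1h2ap and Pgk1 each belong to families with near-identical copies or pseudogenes. How reads were divided among these was not tested, and their levels are uncertain.

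Genes lower with minoxidil included those that had stood out in the Tbx1neo2/neo2 carrier, Hoxa7, Col2a1, Zfhx4, Fibin, Aspn and Runx1, and the Y-linked Ddx3y (42.4, 34.1, 0 and 70.8 CPM). The Xist cells of the reference were already low in some of these, with Zfhx4 at 9.92 CPM against 6.22 with minoxidil and Fibin at 5.51 against 9.13. Within Xist cells 11 of 18 genes lower over all cells, sex-linked genes left out, were past 2-fold. There 3 of 4 chondrogenic and 6 of 10 fibroblast genes were higher with minoxidil and none lower (3.57% of all genes higher), with median log2 ratios of 1.18 and 1.22. Sox11, a factor of immature mesenchyme, was at 73.1, 110, 52.7 and 55.0 CPM, and the mesenchymal Meox1 at 21.4, 32.2, 13.9 and 19.1 CPM. The proliferation genes Mki67 and Tpx2 were past 2-fold lower, 2 of 19 measured cell cycle genes beside 0.339% of all genes. Hpgd, the enzyme that inactivates prostaglandins, was at 16.03, 3.75, 33.2 and 18.6 CPM and higher by a log2 ratio of 3.15 (2.24 to 4.23).

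Summed over all pericytes, several smooth muscle genes were lowest in the Tbx1neo2/neo2 carrier and highest with PGE2. Of 10 measured contractile genes 2 were lower in the Tbx1neo2/neo2 carrier than in the Tbx1+/+ carrier (0.564% of all genes lower), 4 of 10 were higher with minoxidil (1.71% of all genes higher) and 9 of 15 with PGE2 (2.31% of all genes higher), with median log2 ratios of -0.36, 0.52 and 1.65. Acta2, smooth muscle actin, was at 186, 140, 299 and 718 CPM, and Tagln, an actin-binding protein of the same cells, at 113, 53.2, 177 and 579 CPM. Eln, the elastin of arterial walls, was at 126, 29.2, 298 and 711 CPM and Fbln5, which assembles elastic fibres, at 41.8, 13.9, 98.0 and 243 CPM. These summed levels of all 4 genes had the order Tbx1neo2/neo2 carrier, Tbx1+/+ carrier, minoxidil, PGE2, but an Acta2 UMI was present in 36.1, 48.8, 49.8 and 53.7% of cells, lowest in the Tbx1+/+ carrier. With each selected pericyte thinned to 5000 UMIs these shares were 22.2, 32.3, 24.9 and 33.2%. Myh11, the late smooth muscle myosin, had 38, 3, 33 and 153 UMIs, and Cnn1 58, 1, 54 and 165. Tpm1, a tropomyosin that is not restricted to muscle, was at 923, 1073, 919 and 926 CPM and did not follow this order. When cells were thinned to 5000 UMIs before the rule was applied, the 42 Tbx1neo2/neo2 carrier pericytes no longer stood lowest, with a median log2 ratio of 0.44 for the list and of 0.92 for Eln between the carrier libraries. The median with PGE2 was then 0.28, and 1.09 as a mean over cells, and Eln with minoxidil was at -0.02.

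With each cell thinned to 5000 UMIs, the list had a median of 11, 13, 11 and 12 UMIs per pericyte, while the richest cells had 169, 45, 128 and 192. Cells with at least 50 such UMIs were 7 of 504 (1.39%, 0.560 to 2.84), 0 of 167 (up to 2.19%), 8 of 229 (3.49%, 1.52 to 6.77) and 24 of 214 (11.2%, 7.32 to 16.2). Above 22 UMIs, the 90th percentile of the Tbx1neo2/neo2 carrier, there were 37, 14, 26 and 41 cells, with 31, 19, 12 and 11 cells within 2 UMIs of this limit, which was chosen after the values were seen.

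Genes outside the smooth muscle list differed in the cells above 22 UMIs. Rgs5, a G protein regulator of pericytes and arterial muscle, was at 635, 107, 549 and 629 CPM in them and at 48.2, 51.0, 59.1 and 78.4 CPM in the rest. The pericyte marker Ndufa4l2 was at 106.5, 264, 115 and 81.4 CPM against 253, 215.5, 179 and 211 CPM, and Ebf1 at 441, 560, 394 and 320 CPM against 561, 627, 578 and 632 CPM. In the Tbx1+/+ carrier, minoxidil and PGE2 libraries the cells above the limit thus held more Rgs5 and less Ndufa4l2 and Ebf1 than the rest, whereas in the Tbx1neo2/neo2 carrier Rgs5 differed less and Ndufa4l2 was not lower. Over all pericytes Rgs5 was at 94.9, 56.2, 120 and 205 CPM.

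In the cells not above the limit the order was kept for Eln, at 35.4, 27.4, 79.4 and 99.5 CPM, but not for the other 3 genes. Acta2 was at 70.8, 103, 69.3 and 108.5 CPM and Tagln at 20.6, 37.7, 25.3 and 28.0 CPM, so the Tbx1neo2/neo2 carrier was not lowest for either, although Eln, Acta2 and Tagln all belong to the list that chose the cells. Fbln5, which is on no list, was at 9.85, 12.9, 31.1 and 36.3 CPM in these cells, with the Tbx1+/+ carrier lowest.

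In the Tbx1+/+ carrier Eln, Tagln, Rgs5 and Fbln5 were higher in Xist cells. Eln was at 412 CPM in Xist cells and 38.9 CPM in Y-linked cells, Tagln at 380 and 32.5 CPM, Rgs5 at 257 and 45.3 CPM, and Fbln5 at 144 and 10.2 CPM. In the Tbx1neo2/neo2 carrier both kinds were low, with Eln at 22.0 and 30.3 CPM. Compared within Y-linked cells, 1 of 9 contractile genes was lower in the Tbx1neo2/neo2 carrier than in the Tbx1+/+ carrier (0.903% of all genes lower) and the median log2 ratio was 0.16, beside -0.03 over all genes. Within Xist cells 5 of 12 were lower (3.34% of all genes lower) and the median was -0.84, beside -0.08 over all genes. The PGE2 pericytes were nearly all Y-linked. Their Y-linked cells had Eln at 739 CPM and 10 of 15 members past 2-fold over the Y-linked Tbx1neo2/neo2 carrier cells (2.17% of all genes higher, 0.752% lower).

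**Figure D4:**
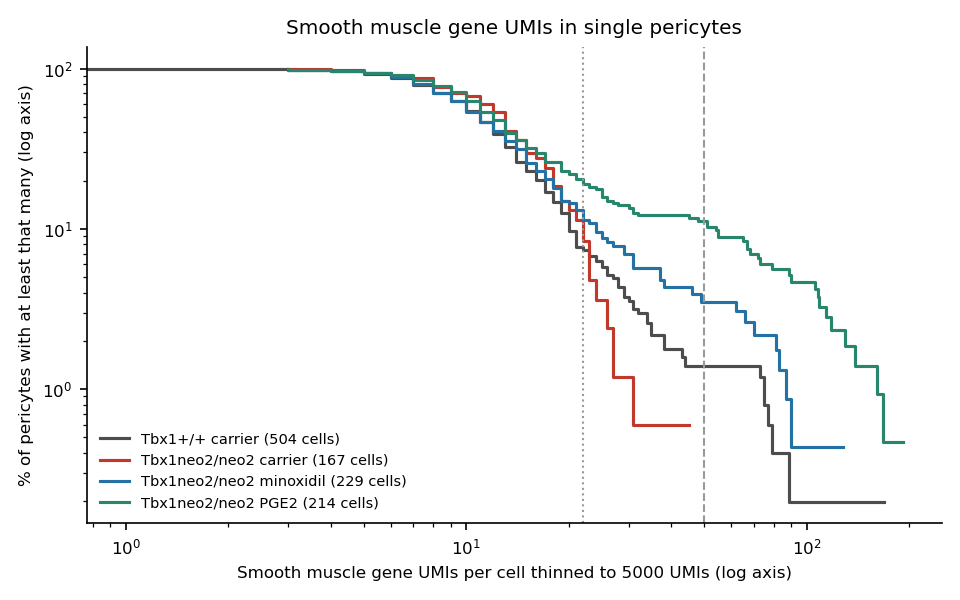
Percentage of pericytes (log axis) with at least a given number of UMIs of 18 smooth muscle genes, each cell thinned to 5000 UMIs (log axis), in the 4 libraries. The dotted and dashed lines mark 22 and 50 UMIs. The Tbx1neo2/neo2 carrier lies above the Tbx1+/+ carrier around the medians of 13 and 11 UMIs and falls to the lowest curve at high counts, where 11.2% of PGE2 pericytes and none of the Tbx1neo2/neo2 carrier pericytes reach 50 UMIs.

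With PGE2, 136 of 5894 genes were higher than in the Tbx1neo2/neo2 carrier and 15 lower (0.254%). The PGE2 pericytes had Y-linked UMIs alone in 192 of 214 cells and Xist alone in 1, so here too drug, sex and embryo cannot be told apart. Immediate early genes were again higher, 16 of 28 with none lower and a median log2 ratio of 1.25 beside 0.02 over all genes, with Atf3 at 5.45 (4.57 to 6.52) and Klf2 at 2.45 (2.20 to 2.71). Extracellular matrix genes followed. Beside 2.31% of all genes higher, 5 of 24 fibrillar and associated collagen genes were higher, Col6a6, Col14a1, Col16a1 and the cross-linking enzymes Lox and Loxl1, and of 21 basement membrane genes 3 were higher, Col4a5, Col15a1 and Fbln2. Mfap5, a microfibril protein of elastic vessels, was at 9.53, 8.62, 20.8 and 62.4 CPM. Col1a1 was at 681, 727, 1172 and 1400 CPM and Dcn, a rule gene, at 417, 460, 643 and 959 CPM. The chemokine Cxcl13 led the contrast at 67.9 CPM against 0.375, but 1 cell held 89.7% of its PGE2 UMIs.

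Genes lower with PGE2 were Xist (196, 313, 685 and 3.50 CPM), the monocyte chemokine Ccl2 (69.8, 83.9, 42.3 and 26.9 CPM), the chromatin protein Hmga2 of immature cells (253, 233, 192 and 113 CPM) and the mitotic Birc5 described above, besides Hoxa7, Col2a1, Zfhx4 and 8 others. In thinned cells the log2 ratio of Birc5 turned to 0.48. Ccl2 and Hmga2 were lower with both drugs than in both carrier libraries, with PGE2 the lowest. Angpt1, the pericyte ligand of endothelial Tie2, was at 58.8, 54.7, 51.1 and 36.6 CPM, within 2-fold in each contrast. Of the pericyte and endothelial ligands and receptors 2 of 32 were higher with minoxidil (Hey2 and Cxcl12, beside 1.71% of all genes) and 1 of 31 with PGE2 (Thbs2, beside 2.31%), and between the carrier libraries none of 28 was past 2-fold, beside 0.256% and 0.564% of all genes.

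The targets of both drugs were examined as lists. In the KATP list none of 9 measured genes outside the rule was past 2-fold between the carrier libraries or with PGE2, and 1 was lower with minoxidil, Prkg1. With 0.256% and 0.564% of all genes past 2-fold between carriers, 0.339% lower with minoxidil and 2.31% higher with PGE2, these counts say nothing particular to the list. Kcnj8 itself was at 303, 296, 254 and 236 CPM and Abcc9 at 191, 235, 174 and 202 CPM, with a median of 4, 4, 6 and 5 and of 3, 3, 5 and 4 UMIs per cell, values that the rule bounds from below. The pancreatic subunits were absent or nearly so, Kcnj11 with 0 UMIs in every library and Abcc8 with 3, 1, 3 and 7. Sult1a1, the sulfotransferase that activates minoxidil, had 44, 8, 53 and 50 UMIs. Downstream of nitric oxide, Gucy1a3 was at 72.4, 72.3, 66.3 and 96.4 CPM, and Prkg1, the cGMP kinase, at 20.6, 35.2, 17.5 and 24.8 CPM. The endothelin receptor Ednra was even at 59.5, 59.9, 60.2 and 72.1 CPM. Adra2a, an adrenergic receptor, was at 42.9, 35.6, 24.9 and 20.8 CPM, within 2-fold in each contrast.

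PGE2 receptors were scarce. Ptger1 had 23, 5, 26 and 16 UMIs, Ptger2 5, 0, 6 and 12, Ptger3 12, 3, 15 and 25, and Ptger4 10, 2, 12 and 11, in 504, 168, 229 and 214 cells. Between the carrier libraries the intervals of all 4 ratios included equality. Against the Tbx1neo2/neo2 carrier they excluded it only for Ptger2 and Ptger3 with PGE2, the latter by a log2 ratio of 2.03 (0.320 to 4.404) on 3 UMIs in the reference. Ptges3, a co-chaperone with PGE2 synthase activity, was at 363, 399, 336 and 341 CPM, and Ptgis, the prostacyclin synthase, at 24.2, 15.7, 24.0 and 29.6 CPM. The inducible synthase Ptgs2 had 17, 3, 14 and 42 UMIs. Tbxa2r, the thromboxane receptor that contracts mural cells, was at 7.09, 5.62, 14.5 and 22.8 CPM. It was the 1 of 3 measured members past 2-fold higher with PGE2 (2.31% of all genes higher). With minoxidil the 1 of 3 was Hpgd, described above (1.71% of all genes higher). Tbx1 itself had 15, 0, 15 and 8 UMIs.

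**Figure D5:**
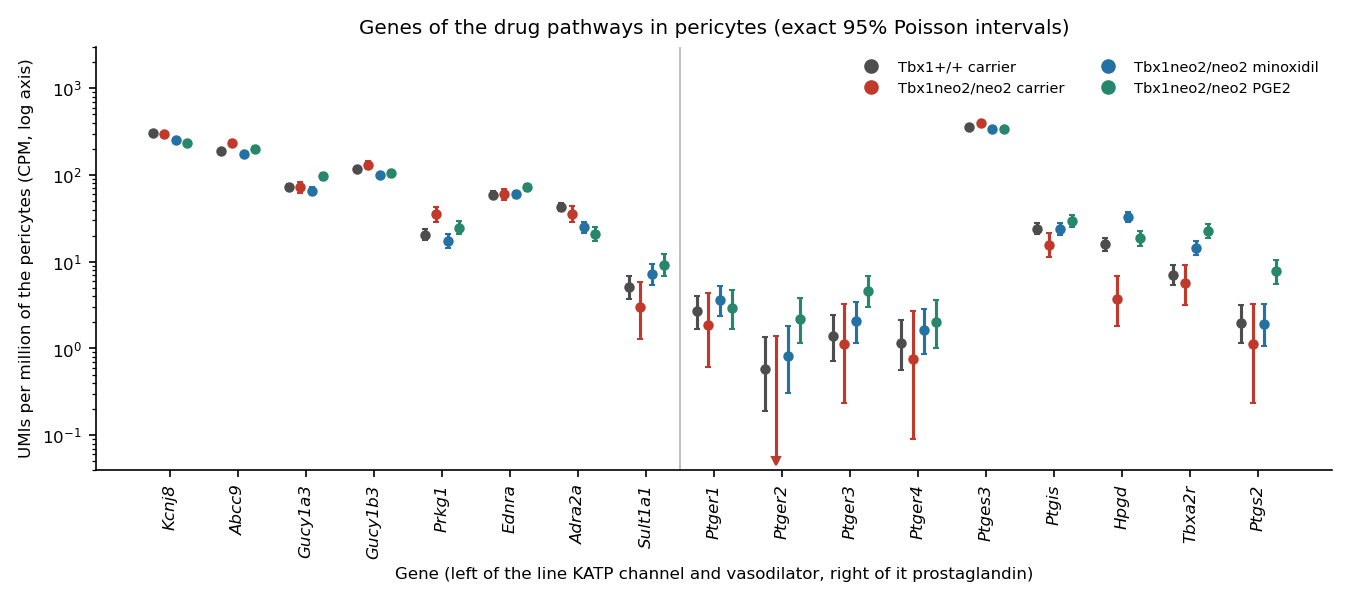
Levels (UMIs per 1000000, log axis) in pericytes of genes of the KATP channel and vasodilator list (left of the line) and of the prostaglandin list (right), with exact 95% Poisson intervals, and a triangle at the lower edge for a count of 0. Kcnj8 and Abcc9 lie between 174 and 303 in every library, whereas the 4 PGE2 receptors lie below 5 with intervals that mostly overlap.

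Other lists had few members past 2-fold between the carrier libraries, where 0.256% of all genes were higher and 0.564% lower, so that a count of 0 is no result about a list of this size. None of 18 basement membrane, 21 fibrillar collagen, 15 thymus stromal, 12 hypoxia and glycolysis and 5 Sox genes was past 2-fold, with median log2 ratios of -0.06, 0.10, -0.12, -0.42 and 0.47. Of 20 neural crest and pharyngeal regulators Zfhx4 and Runx1 were higher, of 9 fibroblast genes outside the rule Ogn, Aspn and Fibin, of 5 chondrogenic genes Col2a1, and of 6 Hox genes Hoxa7. The fibroblast and chondrogenic lists turned with the kind of cell. Within Xist cells 0 of 9 and 0 of 4 were higher and 3 and 2 lower (0.732% and 3.34% of all genes), with medians of -0.82 and -1.12, and within Y-linked cells 3 of 9 and 4 of 7 were higher and none lower (0.686% and 0.903%), with medians of 0.28 and 1.10. With minoxidil and PGE2 the stromal factors had 3 of 15 and 3 of 17 higher (1.71% and 2.31% of all genes), including the Wnt inhibitor Sfrp2 with both.

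Sums of endothelial and hematopoietic markers were close across libraries, while other lists of markers of other cells were less even. Endothelial markers summed to 288, 269, 277 and 288 CPM, led by Ramp2, which these pericytes held at 199, 189, 191 and 192 CPM. Epithelial markers summed to 266, 192, 253 and 282 CPM, led by Ctsl, and hematopoietic markers to 148, 145, 152 and 138 CPM, led by Plac8. Erythroid markers summed to 434, 3338, 2599 and 2631 CPM, led by Hbb-bs in 1 cell as above. The parathyroid hormone gene Pth had 98 UMIs in 84 Tbx1+/+ carrier pericytes and none elsewhere, and it was at 18.0 CPM in the other mesenchyme of that library. Glial and neuronal markers summed to 139, 122, 229 and 243 CPM, mesothelial markers to 229, 200, 168 and 134 CPM and myogenic markers to 54, 70, 51 and 44 CPM. Between the carrier libraries the median log2 ratios were -1.80, -1.05 and -2.04 for epithelial, hematopoietic and mesothelial markers. They were -0.07, 0.07, 0.61 and 2.97 for endothelial, glial and neuronal, myogenic and erythroid markers. With PGE2, 1 of 3 measured endothelial and 1 of 1 glial and neuronal markers were past 2-fold higher (2.31% of all genes higher). Ribosomal transcripts were 24.0, 25.04, 24.8 and 24.8% and mitochondrial transcripts 5.14, 5.79, 4.91 and 5.06% of the pericyte UMIs.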

How the data were processed

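Single-cell RNA was measured in 4 libraries of fetal thymic lobes. The authors deposited raw UMI counts per gene and cell barcode, without normalization. The submitters' processing notes name Cell Ranger 5.0.1, Seurat and mm10. Whether intronic reads were counted is not given in the sources used here. The 4 tables hold 27998 genes. Cells were selected by the rule stated in the report, with no clustering. Doublets were not removed, and removal of the highest Scrublet scores was tried as an alternative. Counts were summed over the pericytes of a library and scaled to 1000000 UMIs. Shares carry Clopper-Pearson intervals, levels exact Poisson intervals and ratios of levels exact conditional binomial intervals, at 95%. Ratios of shares carry log-scale intervals. Cells were not treated as replicates, so no p-value is given, and a level of 0 was compared at 3 counts.

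The genes named were the rule genes and markers, the 10 highest and 10 lowest ratios of each contrast among genes with at least 50 CPM, the 20 highest and 10 lowest in pericytes against other mesenchyme, leading members of 25 lists, all drug list members and Tbx1. Other genes, among them Penk and Angpt1, were named after their values were seen. Some genes that the rule names are not reported here. The members and lists were chosen with earlier results of these data known. List medians took members with at least 20 UMIs in both libraries together. Gene positions are those of GENCODE for GRCm38, promoter sequences those of RefSeq. The ratio calculation was tested on simulated Poisson counts. These hold counting error only and no UMIs clumped in 1 cell, so the test covers the calculation and not genes carried by single cells. Python 3.11.15, numpy 2.4.6, scipy 1.17.1, pandas 2.3.3, matplotlib 3.10.9, scanpy 1.11.5, R 4.3.3 and edgeR 4.0.16 were used, the last for TMM factors only. Alternatives were other mitochondrial and Kcnj8 limits, thinning, doublet removal, TMM factors, means over cells and other minimum levels. Splits by sex, other denominators and leaving out each gene's richest cell were added after the data had been seen.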

Additional observations from a re-analysis of the deposited data

Results flagged for a closer look

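Tagln, Acta2 and the globin gene Hbb-y differed at least 2-fold one way in pericytes and at least 2-fold the opposite way in the other mesenchyme of the same libraries. With 1 library per group the difference between the cell classes was not tested. Tagln had a log2 ratio of -1.09 between the Tbx1neo2/neo2 carrier and the Tbx1+/+ carrier in pericytes (53.2 against 113 CPM) and of 1.36 in other mesenchyme (234 against 90.9 CPM). Between minoxidil and the Tbx1neo2/neo2 carrier, Tagln had 1.73 in pericytes and -2.05 in other mesenchyme, and Acta2 had 1.09 (299 against 140 CPM) and -3.46 (30.4 against 334 CPM). Hbb-y, an embryonic globin, had 1.87 (174 against 47.6 CPM) and -5.95 (25.3 against 1569 CPM) in the same contrast. As stated above, 1 pericyte of each library held most UMIs of the globin Hbb-bs, and the share held by 1 cell is not given for Hbb-y. For Tagln and Acta2 the opposite directions were not seen in the pericytes with at most 22 smooth muscle UMIs, a selection that used both genes: there Tagln had 0.87 between the carriers, and with minoxidil Tagln had -0.58 and Acta2 -0.57.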

How the results depend on the processing

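No paired analysis was possible because each group is 1 library. Depth limits genes under about 20 CPM, and the Tbx1neo2/neo2 carrier rests on the fewest pericytes. TMM factors and a limit of 20% mitochondrial UMIs left the 6 counts of genes and the 60 named genes as they were in direction. A limit of 5% mitochondrial UMIs left 222, 39, 126 and 107 pericytes. The cause was not tested for any change below.

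Shares of gated cells were 24.05, 2.595 and 30.0% in the first 3 libraries with the 5% limit, 26.63, 4.304, 31.87 and 35.81% with Kcnj8 of 1 UMI or more, 16.31, 2.325, 22.83 and 21.22% with 3 or more, and 6.723, 1.065, 7.379 and 7.355% thinned. The ratio of the carrier shares was 0.1079 with the 5% limit. The minoxidil and PGE2 ratios were then 11.56 and 11.55, and PGE2 had 6.909 thinned. The splits added after seeing the data gave a carrier ratio of 1.571 in Xist cells and 0.09094 in Y-linked cells, a minoxidil ratio of 0.8634 in Xist cells and a PGE2 ratio of 14.91 in Y-linked cells. Per epithelial, hematopoietic and endothelial cell the ratios were 1.118, 0.8656 and 0.3657 between carriers, 1.706, 1.77 and 3.505 with minoxidil, and 1.105, 0.9968 and 3.93 with PGE2.

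Genes higher between carriers numbered 79 with the 5% limit, 28 with Kcnj8 of 1, 371 thinned, 9 without the highest Scrublet scores, 4 without each gene's richest cell, 599 with no minimum, 8 at 50 CPM and 41 within Y-linked cells, and genes lower 107, 536, 646, 19 and 54 with the 5% limit, thinned, no minimum, 50 CPM and Y-linked cells. Within Xist cells 44 were higher and 201 lower. Below, 1 sex means Xist cells for minoxidil and Y-linked cells otherwise. With minoxidil the same 5 settings gave 174, 761, 945, 49 and 213 higher and 93, 521, 546, 3 and 36 lower, with 32 lower for Kcnj8 of 1. With PGE2, 781, 926 and 54 were higher thinned, with no minimum and at 50 CPM, and 95, 27, 563, 524, 4 and 45 lower with the 5% limit, Kcnj8 of 1, thinned, no minimum, 50 CPM and 1 sex.

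The smooth muscle median was 0.4406 thinned and 0.1604 within 1 sex between carriers, and 0.2801 thinned, 1.088 as a mean over cells and 2.371 within 1 sex with PGE2. The immediate early median was -0.9799, -0.7202 and -0.6033 in these settings between carriers, 1.52 within 1 sex with minoxidil, and with PGE2 1.355 (5% limit), 1.069 (Kcnj8 of 3), 1.032, 1.161 and 1.101. Between carriers, reversals were chondrogenic genes at -0.3525 without the highest Scrublet scores, hematopoietic markers at 0.4836 within 1 sex and, thinned, erythroid markers at -2.952, Hbb-bs -2.963, Hbb-bt -3.474, Hba-a2 -2.952, Hba-a1 -2.43, Ogn -0.1444 and Eln 0.9227. With minoxidil the chondrogenic and erythroid medians turned to 1.176 and 2.894 within 1 sex, sex-linked genes to 1.325 (5% limit) and, thinned, Eln -0.0182 and 2810417H13Rik 0.5599, and with PGE2 Birc5 at 0.4816 thinned and Cxcl13 at -1.549 (5% limit).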
